A study of Mus musculus with 4 samples.

Results

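Of 30 listed genes of cholesterol synthesis, sterol sensing and sterol transport, 29 had a row in the table of 24444 genes from cultured mouse oesophageal cells. They were picked by symbol from a list of the pathway and ordered by step. Hmgcs1, which makes HMG-CoA, had no row under its symbol or its RefSeq synonym. Some other genes of the pathway are outside this list and were not analysed here. The cells came from C57BL/6J mice. Poly(A) RNA was sequenced in 2 untreated wild-type libraries and in 2 libraries labelled HET, with the Nfe2l2-E79Q cassette introduced by CRISPR/Cas9 microinjection. Nfe2l2 encodes NRF2, the transcription factor of antioxidant and detoxification genes, and E79Q is a tumour-derived substitution in it. The title of the series concerns conditional mice with this mutation. Every column name carries the word SV40, which the labels do not explain. The design text of the series names a human breast cancer line and another gene. It conflicts with the title and with all sample labels, which were followed. Nothing in the labels says whether the 2 replicates of a genotype were separate animals or cultures. The p-values rest on spread within these libraries, most of it pooled by limma over genes, and this spread may be technical.

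Cholesterol is built from acetyl-CoA. The early enzymes make mevalonate and turn it into isoprenoid diphosphates, the middle ones join these into squalene and close it to lanosterol, and the late ones trim lanosterol to cholesterol. SREBP2, encoded by Srebf2, is a membrane-bound transcription factor that drives most of these genes when sterols are scarce. SCAP carries it to the Golgi for cleavage, and the INSIG proteins hold SCAP back in the endoplasmic reticulum when sterols are plentiful. The liver X receptors answer oxysterols and drive sterol efflux. In stratified epithelia cholesterol also belongs to the lipids of the surface barrier.

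Most measured enzymes of cholesterol synthesis fell in E79Q cells, while most genes of sterol sensing, transport and the liver X receptors were not called. Of 28 genes on the list that could be tested, 15 were called lower in E79Q and 2 higher, at a limma adjusted p under 0.05 over 10857 genes tested. Among all genes tested, 18.9% were called lower and 21.5% higher. Of the 18 enzymes measured, 13 were lower and 1 higher, with a median difference of -0.33. The median was -0.46 over the 7 measured enzymes up to farnesyl and geranylgeranyl diphosphate, -0.30 over the 3 from squalene to lanosterol and -0.24 over the 8 from lanosterol to cholesterol. Of the 10 tested genes of sensing, transport and the liver X receptors, 2 were lower and 1 higher, with a median of -0.01. The median over all genes tested was 0.01. Each difference is the E79Q mean less the wild-type mean, ± SE, from 2 pairs of libraries, on the log2-like scale of the variance-stabilised values that were deposited. In bulk RNA, fewer cells of a type and less RNA per cell cannot be told apart.

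**Figure D1:**
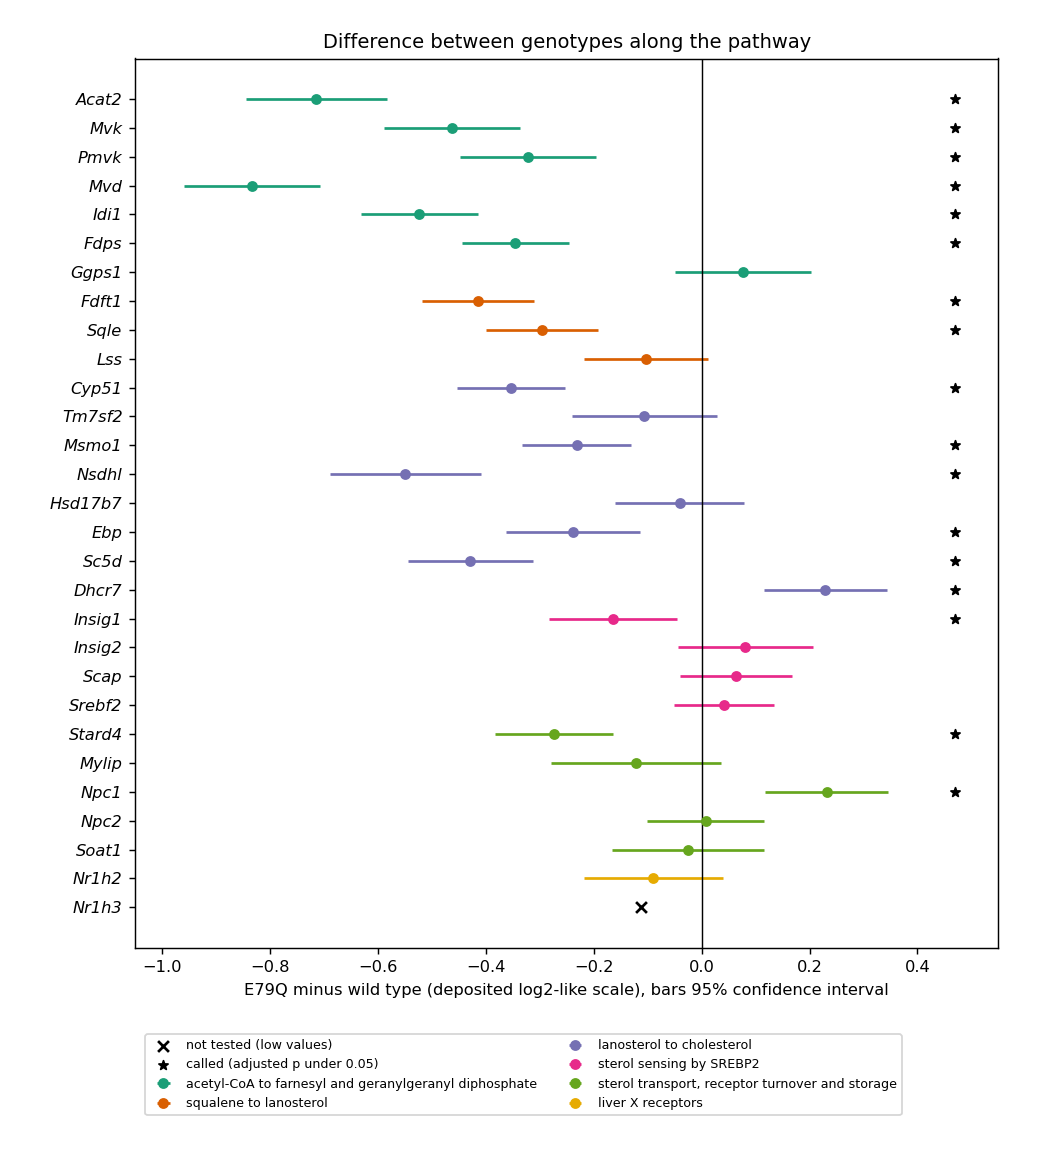
Difference between E79Q and wild type for each measured gene of the list, in pathway order from top to bottom. The x axis is the E79Q mean less the wild-type mean on the log2-like scale, points are limma estimates from 2 replicate pairs, bars are 95% confidence intervals, colours are pathway steps, stars mark called genes and the cross marks the gene with values too low to test. The early enzymes from Acat2 to Fdps lie between -0.83 and -0.32, while Insig2, Scap and Srebf2 lie between 0.04 and 0.08.

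The libraries held squamous epithelial RNA, and most markers of other cells were too low to test. Col1a1, a fibroblast marker, and Cd68, a leukocyte marker, were the exceptions. In wild type Col1a1 had normalised counts of 305 and 333, above the squamous markers Krt4 (194 and 182) and Krt13 (190 and 191). In E79Q Cd68 had 370 and 405, above Krt13 with 343 and 342. Of 10 squamous markers all were high enough to test, 2 called higher and 4 lower, and Krt5, a keratin of basal squamous cells, had values from 15.79 to 15.85 in the 4 libraries. No endothelial marker of 4 and no muscle marker of 4 passed the filter on low values, and the leukocyte genes Ptprc, Adgre1 and Cd3e lay at the floor of the table in every library. Of 5 leukocyte markers 1, Cd68, was tested and was higher, with summed normalised counts of 190 and 168 for the 5 in wild type, against 376 and 414 in E79Q. Of 6 fibroblast markers 1, Col1a1, was high enough to test. The summed normalised counts of these 6 were 395 and 401 in wild type, against 101 and 112 in E79Q. Those of the squamous markers lay between 127450 and 136565. Most of the wild-type sums came from Col1a1, with 305 and 333, and Col1a1 entered the test through its wild-type libraries alone. Dcn, also on this list, went the other way, with no count above 1 in wild type, against 10.8 and 10.7 in E79Q, and Lum lay at the floor. The part of the fibroblast and leukocyte markers in the results was not tested. A list of 13 core NRF2 targets had 13 called higher. A list of 20 genes of G2 and mitosis had 17 called lower (85%), with a median of -0.29. Among all genes tested, 18.9% were called lower and 21.5% higher. The share of squamous markers called higher (20%) lies near this background, and 40% of them were called lower. These mitotic genes moved with the sterol enzymes, and their part in the result was not tested. Normalised counts were recovered from the deposited values. They sum to between 13479900 and 13928700 per library, but these sums follow the scaling by the authors, and the true depth is unknown. Wild-type and E79Q values of 1 replicate number have the same sum as those of the other number in every gene, so the values of single libraries mirror each other within a gene.

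The largest fall on the list was in Mvd, which encodes mevalonate diphosphate decarboxylase, the enzyme that makes isopentenyl diphosphate. Its values were 10.56 and 10.65 in wild type, against 9.82 and 9.73 in E79Q. Both E79Q libraries lay well below both wild-type libraries. The genotypes did not overlap in 79.2% of all genes tested, so this alone sets no gene apart. Because of the equal sums, no overlap and the same direction in both replicates are the same fact, for every gene described here. The difference was -0.83 ± 0.06 (limma adjusted p = 2.70e-08), a 2.05-fold lower normalised count. Mvd ranked 61 of the 10857 genes tested, counted from the most negative difference. Acat2, the cytosolic thiolase that joins acetyl-CoA units at the start of the pathway, came next on the list. It lay at 11.27 and 11.41 in wild type, against 10.70 and 10.55 in E79Q. The gap of -0.71 ± 0.06 (limma adjusted p = 2.09e-07) corresponds to a 1.75-fold lower normalised count. Acat2 has a neighbouring close copy, Acat3, which had a difference of -0.15 ± 0.07 (limma adjusted p = 0.101), and reads of the copies may have been split between them, so the value of Acat2 is uncertain. Idi1, the isomerase that turns isopentenyl into dimethylallyl diphosphate, had the most even pairs of the large falls. Its values were 10.90 and 10.90 in wild type against 10.38 and 10.38 in E79Q, differing by -0.52 ± 0.05 (limma adjusted p = 8.92e-07).

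The other early enzymes fell by less. Mvk, mevalonate kinase, stood at 9.85 and 9.89 in wild type, against 9.43 and 9.39 in E79Q, differing by -0.46 ± 0.06 (limma adjusted p = 1.59e-05). Pmvk, phosphomevalonate kinase, acts directly after it and differed by -0.32 ± 0.06. Fdps, which builds farnesyl diphosphate, had values of 12.65 and 12.71 in wild type, against 12.36 and 12.30 in E79Q. Its difference was -0.35 ± 0.05. Limma adjusted p was 0.000499 for Pmvk and 2.81e-05 for Fdps. For all 3 enzymes the E79Q libraries lay below the wild-type ones in both replicates. Ggps1 was the exception among early enzymes. It extends farnesyl to geranylgeranyl diphosphate, which is used to anchor proteins in membranes and is not on the way to sterols. Ggps1 lay at 9.69 and 9.75 in wild type, against 9.83 and 9.77 in E79Q, and its difference of 0.08 was not called (95% interval -0.05 to 0.20, limma adjusted p = 0.320).

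The promoters of the genes with the largest falls are shown with those of Insig1 and Dhcr7. Insig1 was the only called gene of 4 in the sterol sensing step of the list, and Dhcr7 is an enzyme that rose. These promoters are shown because SREBP2 acts at such promoters together with NF-Y, which binds CCAAT boxes, and Sp1, which binds GC boxes. Each run holds the 250 bases before the most upstream start site that RefSeq lists, in build GRCm38.p6, 5′ to 3′ on the strand of the gene. Capitals mark the CCAAT box, the GC box GGGCGG, each read on either strand, and the palindromic E-box CACGTG. The windows lie at chr8:122443423-122443672, minus strand, for Mvd, at chr17:12960726-12960975, minus strand, for Acat2, at chrX:72918271-72918520, plus strand, for Nsdhl, at chr13:8885356-8885605, plus strand, for Idi1, at chr5:28071162-28071411, plus strand, for Insig1, and at chr7:143822917-143823166, plus strand, for Dhcr7. The deposited values were made on mm9 per the submitters' processing notes, and no coordinate of that build is used here.
Mvd: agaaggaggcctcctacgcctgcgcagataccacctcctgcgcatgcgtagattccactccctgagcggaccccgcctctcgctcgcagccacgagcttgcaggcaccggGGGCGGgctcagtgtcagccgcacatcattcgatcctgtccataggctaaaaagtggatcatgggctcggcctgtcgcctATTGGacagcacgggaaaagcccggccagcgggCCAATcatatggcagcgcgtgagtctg
Acat2: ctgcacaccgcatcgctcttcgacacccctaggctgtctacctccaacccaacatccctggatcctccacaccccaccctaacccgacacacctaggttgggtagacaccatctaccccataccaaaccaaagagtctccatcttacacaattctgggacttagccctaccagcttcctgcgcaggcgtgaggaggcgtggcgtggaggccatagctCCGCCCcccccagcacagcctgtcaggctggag
Nsdhl: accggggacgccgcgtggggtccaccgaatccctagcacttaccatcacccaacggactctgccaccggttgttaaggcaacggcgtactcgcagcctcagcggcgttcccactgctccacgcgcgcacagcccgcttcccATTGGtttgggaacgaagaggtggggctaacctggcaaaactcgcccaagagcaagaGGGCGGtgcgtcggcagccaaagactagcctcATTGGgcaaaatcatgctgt
Idi1: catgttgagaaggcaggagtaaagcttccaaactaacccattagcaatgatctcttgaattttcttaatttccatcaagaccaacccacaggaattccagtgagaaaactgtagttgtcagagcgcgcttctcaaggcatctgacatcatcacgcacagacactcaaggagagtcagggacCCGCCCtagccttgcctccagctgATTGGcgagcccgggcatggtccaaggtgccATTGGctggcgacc
Insig1: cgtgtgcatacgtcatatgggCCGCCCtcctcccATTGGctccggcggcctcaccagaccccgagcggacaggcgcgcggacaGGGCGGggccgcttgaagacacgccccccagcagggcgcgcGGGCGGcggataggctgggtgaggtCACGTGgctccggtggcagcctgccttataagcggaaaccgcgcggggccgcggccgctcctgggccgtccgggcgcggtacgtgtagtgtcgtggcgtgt
Dhcr7: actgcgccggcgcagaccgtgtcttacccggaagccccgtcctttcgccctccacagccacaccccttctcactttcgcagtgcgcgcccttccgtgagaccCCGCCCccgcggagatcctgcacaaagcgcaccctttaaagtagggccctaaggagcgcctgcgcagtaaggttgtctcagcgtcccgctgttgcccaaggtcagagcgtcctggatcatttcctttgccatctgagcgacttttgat

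Each of Mvd, Nsdhl and Idi1 carried 2 CCAAT boxes and 1 GC box in the printed bases. Acat2 and Dhcr7 each carried 1 GC box and no CCAAT box. Insig1 carried 1 CCAAT box, 3 GC boxes and 1 E-box. RefSeq lists 3 start sites for Dhcr7, and the one shown is the most upstream.

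RefSeq windows of 300 bases, from 250 before to 50 after the start site, were matched for 25 of the 30 listed genes, the unmeasured Hmgcs1 included. Those of Fdps, Fdft1, Sqle, Stard4 and Npc1 were not matched. At the most upstream start site, CCAAT stood on either strand in 20 of the 25 windows (80%), against 38.0% of 27025 genes with a window and 39.2% of the 8525 of these that were tested. Of the 11 genes called lower that have a window, 10 carried it, as did 10 of the other 14 windows on the list. GGGCGG was found in 20 windows as well (80%), against 35.9% of all windows and 68.2% of those of tested genes. The E-box CACGTG stood in 4 windows (16%), those of Hsd17b7, Sc5d, Insig1 and Scap, against 7.24% of all windows and 10.7% of those of tested genes. The sterol regulatory element core TCACNCCAC was found in 1 window, that of Hmgcs1, in the form TCACCCCAC, against 1.07% and 0.56% of the windows of tested genes for these spellings, of which the second lies within the first. The core TGACNNNGC of the antioxidant response element, which NRF2 binds with small MAF proteins, stood in 3 windows (12%), those of Mvk, Hsd17b7 and Soat1, against 12.4% of all windows and 15.0% of those of tested genes. Matches are descriptions of letters and not measured binding sites.

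**Figure D2:**
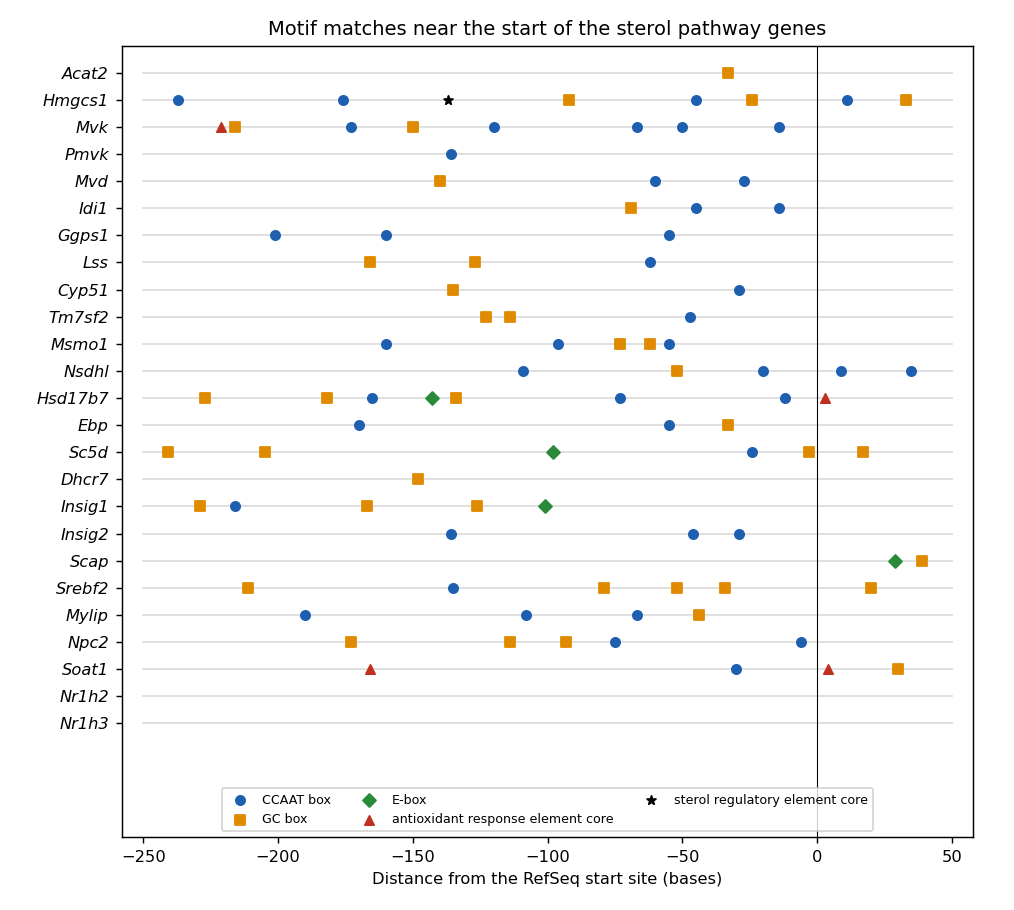
Motif matches in the 25 RefSeq windows, 1 line per gene in pathway order. The x axis is the distance in bases from the most upstream RefSeq start site, and each symbol stands at the leftmost base of a match on either strand. CCAAT boxes appear in 20 of the 25 windows and antioxidant response element cores in 3.

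The middle enzymes fell as well, apart from the cyclase. Fdft1, squalene synthase, is the first enzyme that serves sterols alone. Its values were 11.34 and 11.37 in wild type, against 10.96 and 10.93 in E79Q, differing by -0.41 ± 0.05 (limma adjusted p = 6.96e-06). The 2 genotypes were separated by far more than the replicates differed, in values that carry no difference between the replicate numbers. Sqle, squalene epoxidase, a rate-controlling oxygenase, had values of 11.64 and 11.69 against 11.40 and 11.34, a difference of -0.30 ± 0.05 (limma adjusted p = 0.000185). Lss, which closes the ring to lanosterol, was not called. It stood at 11.27 and 11.37 in wild type, against 11.27 and 11.17 in E79Q, differing by -0.10 (95% interval -0.22 to 0.01, limma adjusted p = 0.146). The replicate 1 libraries of Lss were nearly equal, and the replicate 2 libraries differed by -0.20. Lss passed the test when replicate 1 of wild type or of E79Q was left out (-0.15 in each case, limma adjusted p = 0.0132 and 0.0127). The differences of these 2 fits are the same by construction, so they are not separate checks. Fits with a library left out have no replicate block. They understate the residual variance, since the deposited values already have equal sums over the replicate numbers. Over all its alternatives its adjusted p ranged from 0.0127 to 0.389.

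The late enzymes moved unevenly, with 5 of 8 called lower (62.5%) and 1 higher (12.5%). Among all genes tested the shares were 18.9% lower and 21.5% higher. Nsdhl, a dehydrogenase that helps to remove the methyl groups of lanosterol, fell most. It lay at 10.18 and 10.32 in wild type, against 9.77 and 9.63 in E79Q. Both E79Q libraries were lower, and the gap was wider in replicate 2 (-0.69) than in replicate 1 (-0.41). The mean difference was -0.55 ± 0.07 (limma adjusted p = 8.15e-06), a 1.63-fold lower normalised count. Sc5d, a sterol desaturase, had even pairs, at 10.37 and 10.38 in wild type, against 9.95 and 9.94 in E79Q. Its difference was -0.43 ± 0.05 (limma adjusted p = 1.44e-05). Cyp51, the lanosterol demethylase and the only cytochrome P450 on the list, differed by -0.35 ± 0.05. Ebp, a sterol isomerase, differed by -0.24 ± 0.06 and Msmo1, a methyl sterol oxidase, by -0.23 ± 0.05. Limma adjusted p was 2.25e-05 for Cyp51, 0.00446 for Ebp and 0.00113 for Msmo1. These 3 were lower in E79Q in both replicates.

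Dhcr7 went the other way. This reductase makes cholesterol from its immediate precursor on one of the final routes. Its values were 10.18 and 10.15 in wild type, against 10.38 and 10.41 in E79Q, differing by 0.23 ± 0.05 (limma adjusted p = 0.00323). Both E79Q libraries lay above both wild-type libraries, but the genotypes did not overlap in 79.2% of all genes tested. The reductase gene Tm7sf2 had a difference of -0.11 (95% interval -0.24 to 0.03), and Hsd17b7, a ketosteroid reductase, one of -0.04 (95% interval -0.16 to 0.08). Neither was called. In Hsd17b7 the genotypes overlapped, with 10.18 and 10.25 in wild type, against 10.21 and 10.14 in E79Q.

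Nsdhl and Ebp are the only listed genes on the X chromosome, and Xist, the RNA of the inactive X, differed between the genotypes. Xist lay at 11.99 and 12.17 in wild type, against 7.30 and 7.12 in E79Q. Y-linked genes were detected in all 4 libraries, with Ddx3y at 9.65 and 9.51 in wild type, against 10.05 and 10.19 in E79Q. Ddx3y and Uty were called higher, with differences of 0.54 and 0.31. Eif2s3y and Kdm5d were not called, with differences of 0.06 and 0.13. The make-up of the cells by sex and the genotype therefore cannot be told apart, for any gene. Pgrmc1 and Mbtps2, further genes of the pathway, are X-linked too and were called higher. Of 326 X-linked genes tested, 20.9% were called lower and 12.6% higher. Of 10225 autosomal genes, 18.9% were called lower and 21.9% higher. The median differences were -0.02 on the X chromosome and 0.01 on the autosomes. The part of the sex make-up in these results was not tested.

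**Figure D3:**
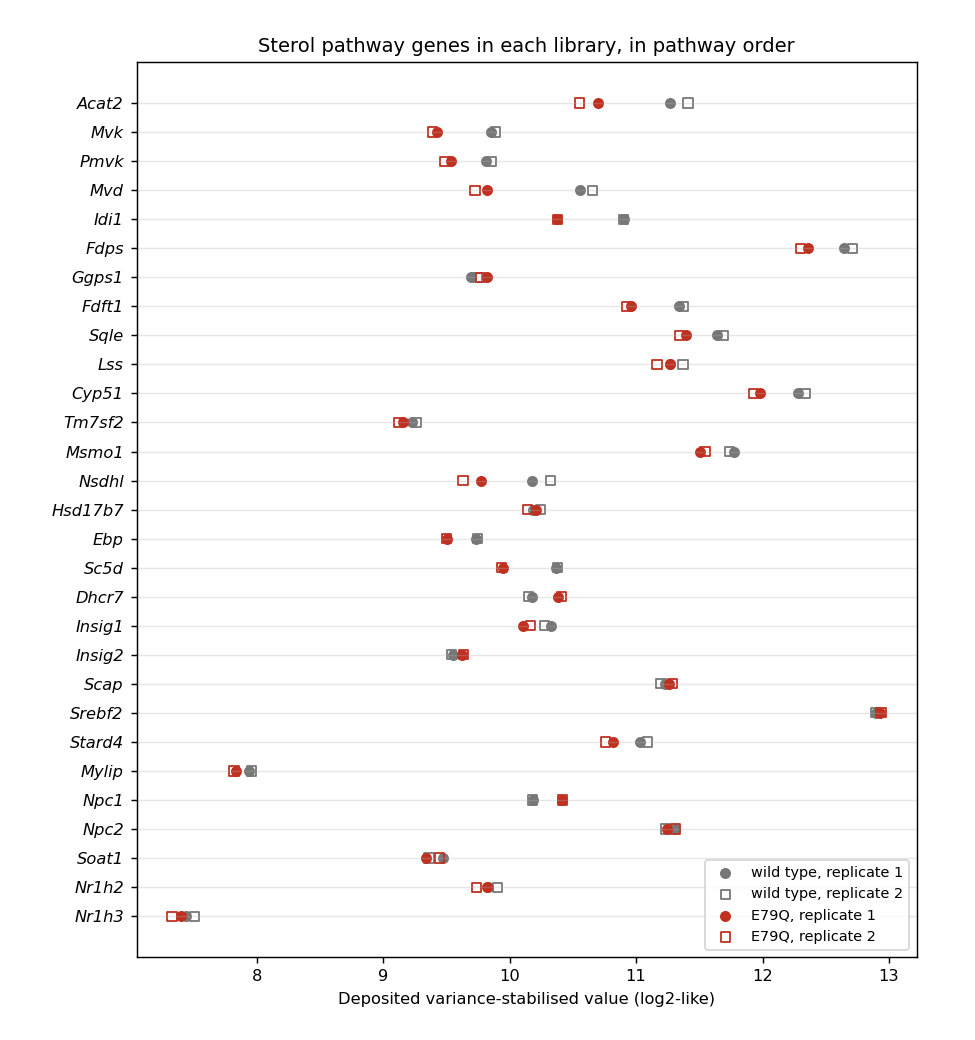
Deposited values of the 29 measured genes in each of the 4 libraries, in pathway order. The x axis is the variance-stabilised log2-like value, grey marks wild type and red marks E79Q, filled circles are replicate 1 and open squares replicate 2. Mvd and Acat2 show the widest gaps between grey and red, and in Dhcr7 and Npc1 red lies to the right of grey.

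Of the 4 listed genes of sterol sensing by SREBP2, Insig1 alone was called in the fit with the replicate block. It was lower, a share of 25% against 18.9% of all genes tested. Srebf2 lay at 12.90 and 12.89 in wild type, against 12.93 and 12.94 in E79Q, differing by 0.04 (95% interval -0.05 to 0.13, limma adjusted p = 0.475), which turned to -0.01 after quantile normalization. Scap, the escort of SREBP2, had a difference of 0.06 (95% interval -0.04 to 0.17). Insig2 had one of 0.08 (95% interval -0.04 to 0.21). Without the block Insig2 and Srebf2 were called, with limma adjusted p = 0.0192 and 0.0341. That fit counts 2 residual degrees of freedom where the equal sums of the replicate numbers leave 1, so it understates the residual variance. Over all alternatives the adjusted p ranged from 0.0192 to 0.431 in Insig2 and from 0.0341 to 0.757 in Srebf2.

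Insig1, an anchor of SCAP and itself a target of SREBP2, was called lower. Its values were 10.33 and 10.27 in wild type, against 10.11 and 10.16 in E79Q, differing by -0.16 ± 0.06 (limma adjusted p = 0.0277). The genotypes did not overlap, but lay close together. The call was lost when genes with low values were left in the test (limma adjusted p = 0.0574, with a range of 0.00392 to 0.0574 over the alternatives).

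The genes of transport, turnover and storage were mixed. Stard4, a cytosolic sterol carrier and a further target of SREBP2, was at 11.03 and 11.09 in wild type, against 10.82 and 10.76 in E79Q. It fell by 0.27 ± 0.05 (limma adjusted p = 0.000594), in both replicates. Npc1, the membrane protein that passes cholesterol out of lysosomes, rose. Its values were 10.19 and 10.18 in wild type, against 10.41 and 10.42 in E79Q, differing by 0.23 ± 0.05 (limma adjusted p = 0.00277), with no overlap of the genotypes. Its soluble partner Npc2 showed no called difference, at 11.30 and 11.23 in wild type, against 11.24 and 11.31 in E79Q, with an interval of -0.10 to 0.12. Soat1, which esterifies cholesterol for storage, had overlapping genotypes too and an interval of -0.17 to 0.12.

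Mylip and the liver X receptors had low values or small differences on the deposited scale, which shrinks differences near its floor of 6.98. On log2 of recovered counts plus 1 Mylip differed by -0.39 and was not called (limma adjusted p = 0.212). Its normalised count was 1.32-fold lower. That of Nr1h3 was 1.66-fold lower, from low counts of 13.2 and 17.4 in wild type, against 10.8 and 7.59 in E79Q. Mylip, a ubiquitin ligase induced by the liver X receptors that degrades lipoprotein receptors, lay at 7.94 and 7.96 in wild type, against 7.84 and 7.82 in E79Q. It entered the test through its wild-type libraries alone, and its difference of -0.12 was not called (95% interval -0.28 to 0.04). Without the replicate block it was called (limma adjusted p = 0.0128, with a range of 0.0128 to 0.429 over the alternatives). Nr1h2, the more widely expressed of the receptors, had a difference of -0.09 (95% interval -0.22 to 0.04). Nr1h3, at 7.44 and 7.51 in wild type, against 7.40 and 7.33 in E79Q, was too low to test.

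The genotypes did not overlap in 25 of the 28 tested genes. Among all genes tested, 79.2% did not overlap, so the share of the list is little above the background. The exceptions were Hsd17b7, Npc2 and Soat1. The smallest two-sided p of an exact test with 2 pairs is 0.5, so each call borrows its spread from other genes through limma.

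Most enzymes had a more negative difference in replicate 2. The difference was more negative in replicate 2 than in replicate 1 in 15 of the 18 measured enzymes (83.3%), with medians of -0.28 in replicate 1 and -0.39 in replicate 2. Among all genes tested the share was 45.8%. The enzymes were measured in the same 4 libraries, so the 15 are not separate observations. Because of the equal sums, it cannot be told whether the wild-type or the E79Q library of a number moved. In Acat2 the difference was -0.57 in replicate 1 and -0.86 in replicate 2, and in Mvd -0.74 and -0.93. Idi1, Msmo1 and Dhcr7 were the enzymes in which replicate 2 was not the lower one. The summed normalised counts of the 18 enzymes were 33626 and 34968 in wild type, against 26986 and 25983 in E79Q, so that E79Q was lower in each replicate.

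**Figure D4:**
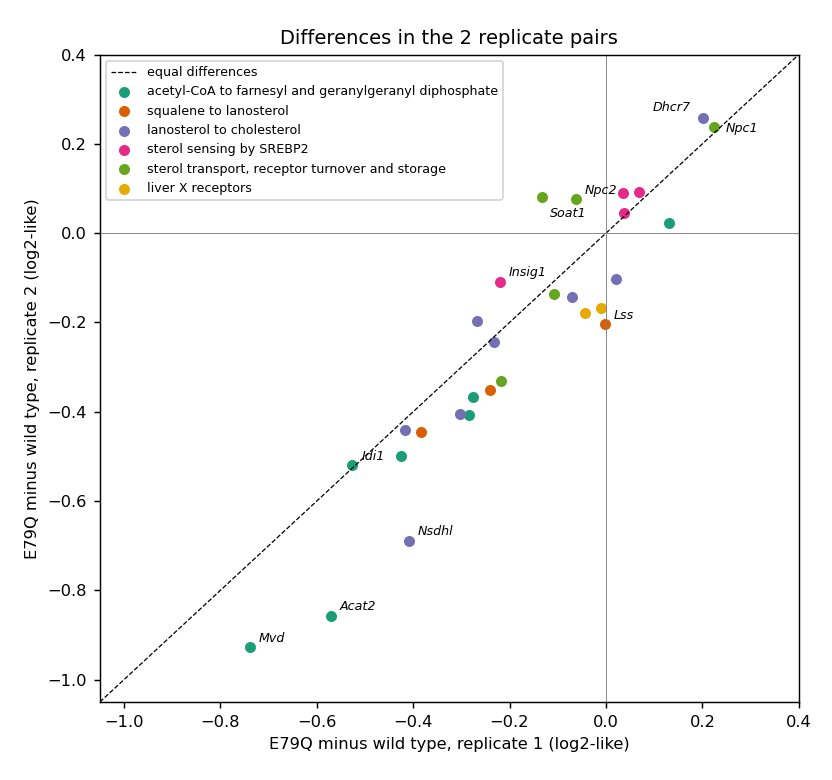
Difference between E79Q and wild type in replicate 1 (x axis) against replicate 2 (y axis), both on the log2-like scale, for the 29 measured genes, coloured by pathway step. The dashed line marks equal differences. Most enzymes lie below the line, as 15 of 18 differ more negatively in replicate 2, and Mvd and Acat2 lie farthest down.

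**Figure D5:**
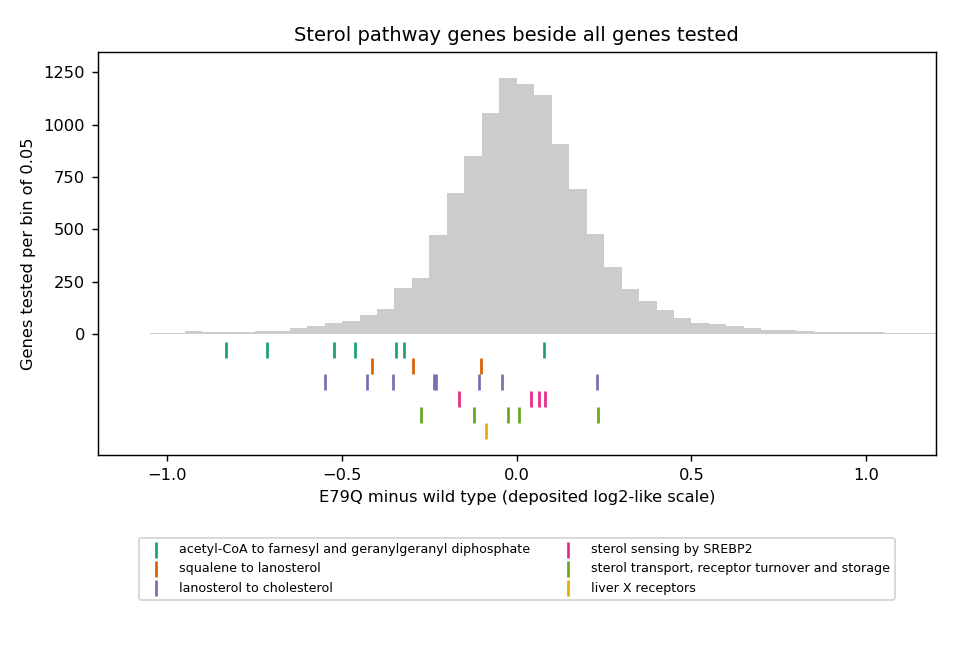
Differences of the 28 tested genes of the list (coloured ticks, 1 row per pathway step) under the histogram of all genes tested, in bins of 0.05 of the log2-like scale. The axis ends at 1.2 on either side and leaves out 48 genes. The early enzymes other than Ggps1 lie to the left of the centre, with Mvd at -0.83, while the ticks of sterol sensing lie near the centre.

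Overlapping annotation touches some of these values, since no source used here gives the strand setting of the counting. In GENCODE M21, exons of Fdft1 share 18.3% of their bases with Ctsb on the other strand, exons of Ggps1 5.4% with Arid4b and exons of Cyp51 3.8% with Akap9. Tm7sf2 shares 12.1% with Vps51 on its own strand. Fdps shares 26.7% with Gm43738 on its own strand, which had no tested row under this symbol. Ctsb (0.12 ± 0.05), Arid4b (0.21 ± 0.06) and Akap9 (0.23 ± 0.05) were called higher and Vps51 (-0.22 ± 0.06) lower, with limma adjusted p-values of 0.0380, 0.00830, 0.00112 and 0.00605. Genes on the other strand with no tested row under their GENCODE symbol share 13.2% of the exonic bases of Scap, 9.2% of Idi1 and 3.5% of Lss. For Npc1 the shares with such genes are 4.5% (Rmc1) and 0.8% (Gm15956). Rows under other symbols of these genes were not searched for. The values of all these genes on the list are uncertain. The share of their reads that came from the shared bases was not measured.

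Around the pathway, lists of 66 further genes held calls in both directions, 16 higher (26.2%) and 11 lower (18.0%) of 61 tested. These shares lie near the 21.5% higher and 18.9% lower of all genes tested. Among genes that supply acetyl-CoA and electrons to sterol enzymes, 3 of 10 (30%) were lower and 2 (20%) higher. Acly, which makes cytosolic acetyl-CoA from citrate, fell by 0.32 ± 0.05 (limma adjusted p = 5.22e-05). Cyb5r3 and Por, which pass electrons to the oxygenases, fell by 0.16 and 0.17. The haem-binding protein genes Pgrmc1 and Cyb5a rose by 0.26 and 0.18. Por was no longer called without the replicate block, without the filter or without the variance trend (limma adjusted p = 0.0722, 0.0559 and 0.0530, with a range of 0.00114 to 0.0722 over the alternatives). Among users of isoprenoids, such as the prenyl transferases, 3 of 15 (20%) were called higher, with a median of 0.02, a share below that of all genes tested. Rabggta, a subunit of the enzyme that prenylates RAB proteins, rose by 0.25 ± 0.06. Nus1 and Icmt were called at differences of 0.14 and 0.13. Both lost the call without the filter, without the trend and after median or quantile scaling, with adjusted p-values up to 0.0725 in Nus1 and 0.108 in Icmt.

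The widest gaps near the sensors were in Erlin1 and Rnf145, in opposite directions. Erlin1, an endoplasmic reticulum protein that takes part in the sterol-controlled turnover of proteins, lay at 11.19 and 11.10 in wild type, against 12.12 and 12.21 in E79Q. It rose by 1.02 ± 0.05 (limma adjusted p = 5.87e-10), a ratio of normalised counts of 2.15. Rnf145, a sterol-responsive ubiquitin ligase, lay at 11.42 and 11.45 in wild type, against 10.53 and 10.49 in E79Q. It fell by 0.93 ± 0.05 (limma adjusted p = 1.09e-09). In both genes the genotypes lay far apart compared with the replicates, in values that carry no difference between the replicate numbers. Both differences are larger than that of any gene on the main list. Of the proteases that cleave SREBP2 in the Golgi, Mbtps1 fell by 0.27 ± 0.05 (limma adjusted p = 0.000301), and Mbtps2 was called at 0.15 ± 0.05 (limma adjusted p = 0.0394). The call of Mbtps2 was lost without the filter, without the trend and after median or quantile scaling, with adjusted p-values from 0.00923 to 0.0821 over all alternatives. Ube2g2, a ubiquitin-conjugating enzyme of the endoplasmic reticulum, rose by 0.25 ± 0.05. In the list of SREBP processing and sensor turnover 3 of 10 (30%) were higher and 2 (20%) lower, against 21.5% and 18.9% of all genes tested.

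Genes of sterol transfer, uptake and ester turnover had 8 called higher (44.4%) and 2 lower (11.1%) of 18 tested, against 21.5% and 18.9% of all genes tested. Osbpl2, an oxysterol-binding protein relative, and Stard5, a sterol carrier, rose by 0.49 ± 0.05 and 0.46 ± 0.05. Osbpl3, of the same family as Osbpl2, fell by 0.53 ± 0.06. Lipa, the lysosomal lipase that frees cholesterol from its esters, fell by 0.30 ± 0.06. Of 8 tested oxysterol enzymes and liver X receptor targets, 4 (50%) were called lower. Ch25h, which makes an oxysterol, fell by 0.46 ± 0.07, Lpcat3, a phospholipid acyltransferase, by 0.44 ± 0.06 and Arl4c, a small GTPase, by 0.38 ± 0.05. Limma adjusted p-values of these 7 genes lie between 2.67e-06 and 0.00110. A list of 11 genes of fatty acid synthesis, the other branch of SREBP control, had 8 lower and 1 higher, with a median of -0.31.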

How the data were processed

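RNA from 4 libraries, 2 wild type and 2 E79Q, was compared. Per the file headers and values, the authors deposited 1 table of variance-stabilised values on a log2-like scale, from 6.90 to 18.7. Tools listed without roles in the submitters' processing notes are DESeq2, DESeq 1.22.2, Salmon 0.11.3 and STAR 2.5.2b, with build mm9. No source used here gives the annotation or the strand setting. Within each gene both replicate numbers have equal sums, to within 1.31e-13, so the values carry no difference between the numbers. Because of this the deviations of same-numbered libraries have a correlation of -1 by construction, and the numbers cannot be checked as pairs. A paired fit was kept as the main one. Normalised counts were recovered by inverting the variance-stabilising curve at its floor of 6.98, and a fold in normalised counts is the ratio of group means.

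Genes at least 1 above the lowest value in at least 2 libraries were tested (10857 of 24444). Limma 3.58.1 in R 4.3.3 fitted genotype and replicate number, with empirical Bayes variances, a mean-variance trend and Benjamini-Hochberg adjustment over all genes tested. A call is an adjusted p under 0.05. The block leaves 1 residual degree of freedom, beside 14.6 prior ones. Intervals are 95%. All 30 listed genes were described, and from each further list the called genes with the largest differences, at most 3 in each direction, of which 1 is not reported here. The genes and lists were chosen with earlier results of these data known. Promoter windows were taken from RefSeq and exon overlaps from GENCODE M21. Alternatives changed the block, filter, scaling, variance model, scale and libraries.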

Additional observations from a re-analysis of the deposited data

How the results depend on the processing

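Of the 17 called genes on the list, 16 were called under all 13 alternatives, and the exception was Insig1 without the filter on low values. The share of all called genes that kept their call in this way was not computed, so it has no background here. Without the replicate block 17 of the 28 tested genes of the list were lower and 4 higher, against 15 and 2 with it. The added genes were Tm7sf2 and Mylip, lower, and Insig2 and Srebf2, higher. Over all 10857 genes tested the fit without the block called 2882 lower and 3122 higher. Because both replicate numbers have equal sums in every gene, the pairing cannot be checked from these values, and a crossed pairing could not be fitted. With 1 library left out, 15 to 16 genes of the list were lower and 2 higher, and over all genes 2391 to 2544 were lower and 2617 to 2924 higher. There the lone library is assumed to vary like the others. Leaving out either library of 1 replicate number gives the same difference in every gene, because of the equal sums. The fits with a library left out are therefore not all separate checks. Fits without the block, those with a library left out included, understate the residual variance. Differences near 0 changed sign: Srebf2 to -0.0144 after quantile normalization, and Npc2 to -0.0107 after median centring and -0.0198 after quantile normalization. With 1 library left out Npc2 ranged from -0.0275 to 0.0419 and Soat1 from -0.0785 to 0.0282. The cause was not tested. Depth is unknown.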
